A study of Caenorhabditis elegans with 6 samples.

Results

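The mitochondrial ribosomal proteins of *Caenorhabditis elegans* were described in nematodes treated with chlorpyrifos (CPF), a pesticide of the organophosphorus group and an inhibitor of acetylcholinesterase. Members were all genes whose symbol begins with mrpl- (large subunit) or mrps- (small subunit), found through the sequence name that the scanner files give for each spot. The annotation holds 71 such genes, and 65 of them had a probe, 37 of the large subunit and 28 of the small subunit, out of 18865 genes on the array. These 65 genes had 68 of the 22490 gene probes. The treated nematodes were wild type strain N2 kept at 24 °C on agar that held 0.5 mg/l CPF dissolved in acetone, and the control nematodes were N2 kept on agar with acetone alone. Both ate *Escherichia coli* OP50. Each sample was RNA of a pooled population of whole animals, labelled as late larvae (L3/L4) of 72 h. The study's methods describe a shorter culture at 24 °C and give 72 h for worms reared at a lower temperature. Which time applies is unclear from the files. On each of 6 arrays RNA of a CPF population and of a control population was hybridised together, in a dye swap. CPF carried Cy5 on 3 arrays, called CPF in Cy5, and Cy3 on 3 arrays, called CPF in Cy3. According to the methods these were independent biological replicates.

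Mitochondria keep a small genome of their own, and its messenger RNAs are translated by a separate ribosome inside the organelle. The proteins of that ribosome are encoded in the nucleus, made in the cytosol and imported, and many are related to bacterial ribosomal proteins while others have no bacterial counterpart. The ribosome makes core subunits of the respiratory chain and of ATP synthase, and in *C. elegans* lowering one of its proteins, MRPS-5, is known to induce the mitochondrial unfolded protein response and to lengthen life.

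The arrays differed in quality. Between 35.2% and 56.1% of gene probes were above local background in the Cy3 channel and between 38.3% and 53.4% in the Cy5 channel, and at most 1 of the 619 empty spots was above background in the CPF channel of any array. CPF in Cy3 replicate 1 had the widest ratios, with an SD over tested probes of 0.900, where the other 5 arrays had 0.424 to 0.468. The detector voltage of the Cy5 channel was set at 60 on that array and at 55 on the others. Any difference in scanning or in animals between the orientations cannot be told apart from dye.

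The probes of the mitochondrial ribosomal proteins were readily measured. A probe was tested where its median brightness was 2 SDs or more above the background around it in 6 or more of the 12 channels. This held for 62 of 68 member probes (91.2%) and for 49.1% of all gene probes. The 62 probes stood for 59 genes, 34 of the large subunit and 25 of the small subunit, and 56 of them were above background in all 12 channels. Every tested member was above background in at least 4 CPF channels and at least 4 control channels, and no member probe was saturated. In a single channel between 57 and 64 of the 68 member probes were above background.

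Of the remaining genes, mrps-18.C, mrps-31, mrpl-11 and mrpl-30 were above background in no channel, mrpl-45 in 1 CPF and 1 control channel, and mrps-35 in 2 CPF and 2 control channels. The log2 ratio of mrps-35 was between 0.28 and 0.97 on the 6 arrays, but its spot was too dim to be tested. No probe was matched to mrpl-21, mrpl-36, mrpl-39, mrpl-42, mrpl-53 or mrps-24. Over the 59 tested genes the mean normalised log2 intensity of a gene ranged between 7.77 and 12.10 in the CPF channels (median 10.43) and between 7.77 and 11.60 in the control channels (median 10.32). The SD of a gene's level over the 6 arrays had a median of 0.60 in each group. The SD of its ratio within arrays had a median of 0.29.

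**Figure D1:**
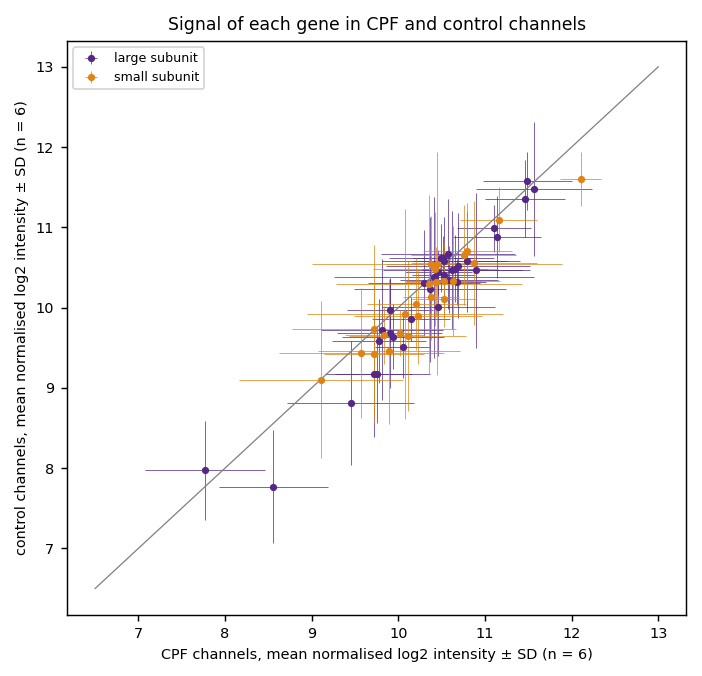
Mean normalised log2 intensity of the 59 tested genes in the CPF channels (x axis) and in the control channels (y axis), with bars for the SD over 6 arrays; purple points are large subunit genes, orange points small subunit genes, and the line marks equal levels. The points lie close to the line, with medians of 10.43 in CPF and 10.32 in control channels.

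No mitochondrial ribosomal protein was significantly regulated by CPF treatment, although most of them had a fitted ratio slightly above 0. Directions are those given by the scanner labels. In the authors' table of log ratios each of the 6 columns matched the same-numbered array of the opposite dye orientation, and going by its headings every sign would turn. In the limma fit 0 of 62 member probes passed an adjusted p of 0.05 (Benjamini-Hochberg over 11033 tested probes), where 3.5% of all tested probes passed. The smallest adjusted p among members was 0.0558, for the dimmer probe of mrps-18B. At an unadjusted p of 0.05, 18 of 62 probes (29%) were higher in CPF, against 15.9% of all tested probes, and 0 of 62 were lower, against 11.5%.

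Most members thus had values above 0 without passing the test. The fitted log2 ratio of CPF over control was above 0 for 49 of 62 member probes (79%), against 53.3% of all tested probes, and for 47 of 59 genes. Ratios were above 0 on all 6 arrays for 11 of 62 probes (17.7%), 9 of the large and 2 of the small subunit, against 8.45% of all tested probes. No member probe was below 0 on all 6 arrays, against 8.1% of all. The median log2 ratio over the 59 genes was 0.16, against 0.01 over 9947 tested genes. Of the 59 genes 34 had a fitted ratio between -0.2 and 0.2, and 5 had one above 0.5. In whole animals, a change in the number of cells of a type and a change in RNA per cell cannot be told apart.

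**Figure D2:**
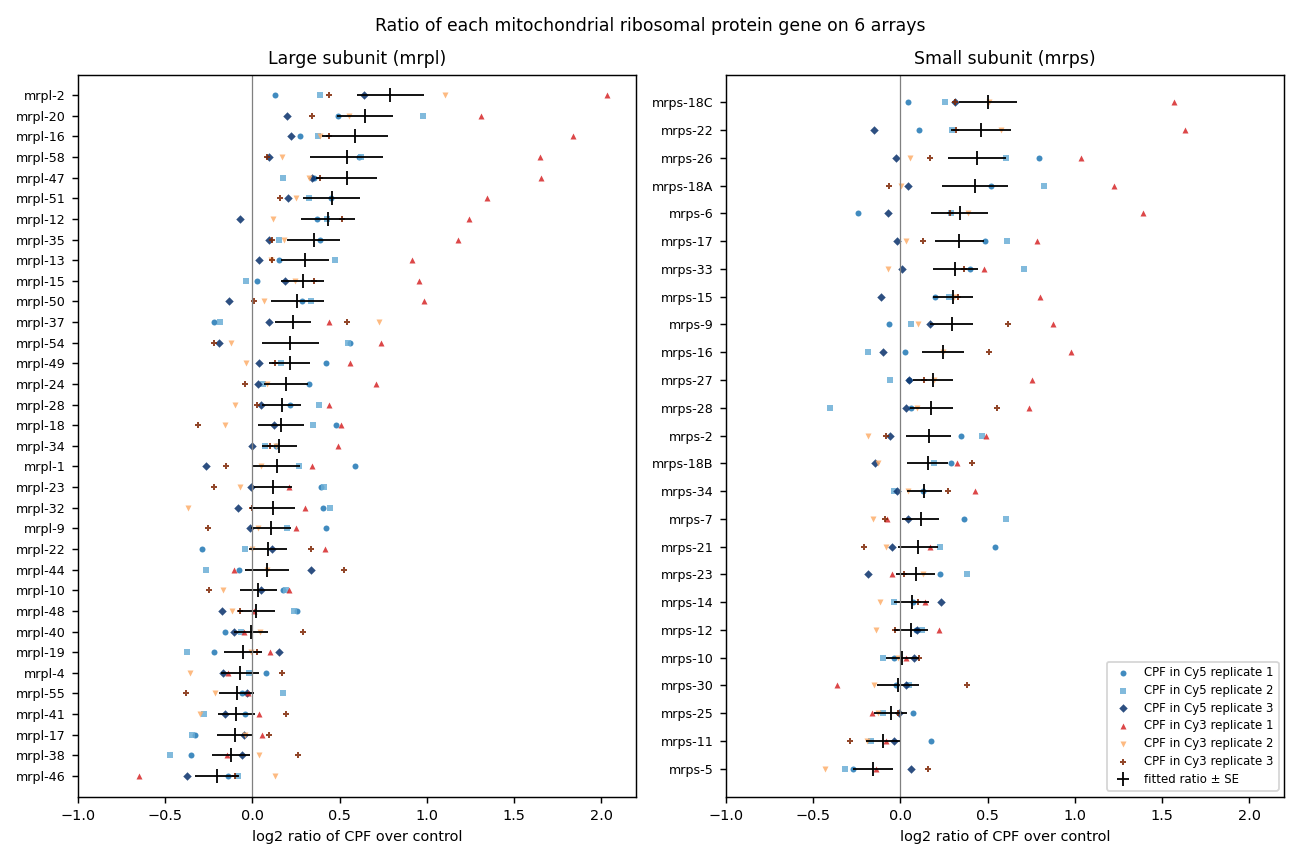
Log2 ratio of CPF over control, by the scanner labels, of each tested mitochondrial ribosomal protein gene (rows, sorted by fitted ratio) on each of the 6 arrays (coloured points), with the fitted ratio and its SE in black. CPF in Cy3 replicate 1 (red triangles) lies far to the right for the genes at the top, up to 2.03 for mrpl-2.

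The 10 highest fitted ratios were those of 7 large subunit and 3 small subunit genes, and none of them passed the threshold. mrpl-2 is the counterpart of bacterial L2, a protein beside the peptidyl transferase centre. Its normalised log2 intensity averaged 8.56 ± 0.63 in the CPF channels and 7.77 ± 0.70 in the control channels (SD, n = 6 each). Within the arrays its log2 ratios of CPF over control were 0.13, 0.39 and 0.64 on CPF in Cy5 replicates 1 to 3 and 2.03, 1.10 and 0.44 on CPF in Cy3 replicates 1 to 3. The CPF channel was the brighter on all 6 arrays, by the most on CPF in Cy3 replicate 1. The fitted log2 ratio was 0.79 ± 0.19 (SE, n = 6; limma adjusted p = 0.0624), a 1.73-fold ratio with a 95% interval of 1.28 to 2.34. Only 4 of 6 control channels were above background for this probe, against 6 of 6 CPF channels.

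mrpl-20 is related to bacterial L20, which binds ribosomal RNA early in the assembly of the large subunit. Its log2 ratios were 0.49, 0.98 and 0.20 on the CPF in Cy5 arrays and 1.31, 0.55 and 0.34 on the CPF in Cy3 arrays, all above 0. The fitted ratio was 0.64 ± 0.16 (limma adjusted p = 0.0633). mrpl-16 is related to bacterial L16, which lies near the site where incoming transfer RNA binds. Its ratios were 0.28, 0.38 and 0.22 with CPF in Cy5 and 1.84, 0.39 and 0.44 with CPF in Cy3, so that 5 arrays lay close together and 1 stood apart. The fitted ratio of 0.59 ± 0.19 had an adjusted p of 0.106 in limma.

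A similar distribution over the arrays was seen for mrpl-47, a relative of bacterial L29 near the mouth of the exit tunnel. Its ratio was 1.65 on CPF in Cy3 replicate 1 and between 0.17 and 0.39 on the other 5 arrays (fitted 0.54 ± 0.18). mrpl-58, whose human relative is a peptidyl-tRNA hydrolase built into the ribosome, had 1.65 on the same array, against 0.61, 0.62, 0.10, 0.17 and 0.09 on the others (fitted 0.54 ± 0.21). mrpl-51, a protein with no bacterial counterpart, had 1.34 on that array and at most 0.45 on the others (fitted 0.45 ± 0.16). mrpl-12 is the relative of the bacterial stalk protein that contacts translation factors, and its ratios were 0.37, 0.43, -0.07, 1.24, 0.12 and 0.51 (fitted 0.43 ± 0.16). The adjusted p of these 4 genes lay between 0.110 and 0.145.

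In the small subunit the highest ratio belonged to mrps-18C, one of several relatives of bacterial S18 in the worm. On CPF in Cy5 replicates 1 to 3 its log2 intensity was 11.82, 12.01 and 12.18 in the CPF channel, against 11.78, 11.76 and 11.87 in the control channel. On CPF in Cy3 replicates 1 to 3 the CPF channel gave 12.50, 12.14 and 11.97, against 10.94, 11.63 and 11.65 in the control channel. CPF was above control on each array, by 0.04 on the lowest and by 1.57 on the highest. The fitted log2 ratio was 0.50 ± 0.17 (n = 6, limma adjusted p = 0.113). mrps-22, a protein without bacterial counterpart that in humans is linked to mitochondrial disease, had ratios of 0.10, 0.29, -0.15, 1.63, 0.58 and 0.32 (fitted 0.46 ± 0.17, adjusted p = 0.138). mrps-26, also without bacterial counterpart, had 0.80, 0.61, -0.03, 1.03, 0.05 and 0.17 (fitted 0.44 ± 0.17, adjusted p = 0.141). Both were below 0 on 1 array, CPF in Cy5 replicate 3.

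At the other end of the order, no member fell significantly. mrps-5 encodes the relative of bacterial S5, a protein near the decoding site, and is the member best known from studies of ageing in the worm. Its log2 intensity on CPF in Cy5 replicates 1 to 3 was 10.40, 10.50 and 11.11 in the CPF channel, against 10.68, 10.81 and 11.04 in the control channel. On CPF in Cy3 replicates 1 to 3 it was 10.54, 10.23 and 9.50 in the CPF channel, against 10.69, 10.66 and 9.34 in the control channel. The CPF channel was the dimmer on 4 arrays and the brighter on CPF in Cy5 replicate 3 and CPF in Cy3 replicate 3. The fitted log2 ratio was -0.16 ± 0.12 (limma adjusted p = 0.388), with a 95% interval of -0.42 to 0.11.

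mrpl-46, a large subunit protein with no bacterial counterpart, had the lowest fitted ratio, -0.20 ± 0.13 (limma adjusted p = 0.310). Its ratio was -0.65 on CPF in Cy3 replicate 1 and 0.13 on CPF in Cy3 replicate 2, the only array above 0. Without CPF in Cy3 replicate 1 its fitted ratio was -0.09 ± 0.10 and that of mrps-5, at -0.16, was the lowest. The probe was dim, above background in 5 CPF and 4 control channels. The 8 other genes with the lowest ratios lay between -0.12 and -0.05, each with an interval that held 0. They were mrpl-38, mrpl-17, mrps-11, mrpl-41, mrpl-55, mrpl-4, mrps-25 and mrpl-19. Among them mrpl-4 is related to the bacterial L4, which lines the exit tunnel, and its ratio was -0.07 ± 0.11. mrps-2, the neighbour of mrpl-4 on chromosome V, had a ratio of 0.16 ± 0.13.

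For 3 genes the array held 2 tested probes each, and these probes did not always give the same value. The dimmer probe of mrps-18B, another relative of bacterial S18, had log2 ratios of 0.55, 0.90 and 0.41 with CPF in Cy5 and of 1.57, 1.12 and 0.14 with CPF in Cy3. Its fitted ratio of 0.78 ± 0.18 was close to the threshold (limma adjusted p = 0.0558), whereas the brighter probe gave 0.16 ± 0.12 (adjusted p = 0.392) and was below 0 on 2 arrays. For mrpl-13 the dimmer probe gave 0.89 ± 0.31 (adjusted p = 0.126) with 2.82 on CPF in Cy3 replicate 1, and the brighter probe gave 0.30 ± 0.14 (adjusted p = 0.197). For mrpl-44, whose human relative carries an RNase III-like domain, the brighter probe gave 0.08 ± 0.13 and the dimmer probe -0.31 ± 0.14 (adjusted p = 0.199). The dimmer probe of mrps-18B was above background in 5 control channels, that of mrpl-13 in 4, and that of mrpl-44 in 4 CPF and 4 control channels. Gene values elsewhere rest on the brighter probe.

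The precision of these ratios was set by the 6 arrays. The 95% interval lay within 1 log2 unit of 0 for 56 of 62 member probes and within 0.5 for 37, and it held 0 for 44. The median distance from the fitted ratio to the end of its interval was 0.28, and the largest was 0.72. mrps-10 varied least over the arrays, with ratios between -0.10 and 0.11 (SD 0.0759, n = 6), and mrpl-2 varied most among the genes (SD 0.69).

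Across the arrays the median ratio of the 59 genes was above 0 each time, but by very different amounts. It was 0.18, 0.19 and 0.01 on CPF in Cy5 replicates 1 to 3, and 0.44, 0.04 and 0.13 on CPF in Cy3 replicates 1 to 3. Over all tested genes the median was between -0.02 and 0.04 on each array. Of the 59 genes 44, 39 and 30 were above 0 on the CPF in Cy5 arrays and 47, 34 and 41 on the CPF in Cy3 arrays. On CPF in Cy5 replicate 3 and CPF in Cy3 replicate 2 the members were thus almost evenly placed around 0. The summed intensity of the 59 genes (linear scale) was 74931.5 to 101527 in the CPF channels and 69482.8 to 99769.3 in the control channels. These ranges overlapped, although the CPF sum was the higher within each of the 6 arrays.

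**Figure D3:**
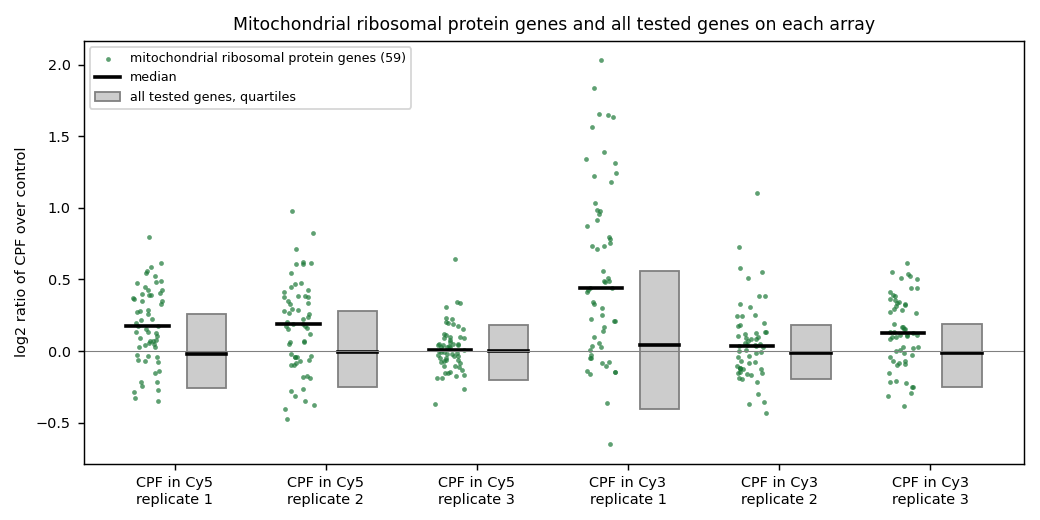
Log2 ratio of CPF over control, by the scanner labels, on each array for the 59 mitochondrial ribosomal protein genes (green points, bar at the median) and for all 9947 tested genes (grey box from lower to upper quartile, bar at the median). Member medians were 0.18, 0.19, 0.01, 0.44, 0.04 and 0.13 from left to right.

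One array contributed much of the height of the top genes. CPF in Cy3 replicate 1 gave the highest of the 6 ratios for 35 of 62 member probes (56.5%), against 35.8% of all tested probes. Without it the median over the 59 genes was 0.09, against 0.00 over all tested genes, and 48 of 59 genes were above 0. The fitted ratio of mrpl-16 was then 0.35 ± 0.10 (limma adjusted p = 0.0602), that of mrpl-58 0.29 ± 0.12 (0.164) and that of mrps-22 0.27 ± 0.11 (0.178). As the spread between arrays also became smaller, 3 of 62 member probes were then called higher (4.84%), against 3.79% of all tested probes, and 0 lower, against 3.52%. These were mrpl-2 (0.58 ± 0.13, adjusted p = 0.0266), mrpl-20 (0.50 ± 0.13, adjusted p = 0.0444) and the dimmer probe of mrps-18B (0.62 ± 0.15, adjusted p = 0.0349).

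Leaving out CPF in Cy3 replicate 3 instead gave 5 calls higher (8.06%), against 8.76% of all tested probes, and 0 lower, against 3.23%. The 5 probes were those of mrpl-2, mrpl-20 and mrps-18C and the dimmer probes of mrpl-13 and mrps-18B. With any of the other 4 arrays left out no member probe was called. In both of these fits the share of members called higher was near that of all tested probes. In both directions together, the members' share lay below that of all tested probes, 4.84% against 7.31% without CPF in Cy3 replicate 1 and 8.06% against 12% without CPF in Cy3 replicate 3.

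**Figure D4:**
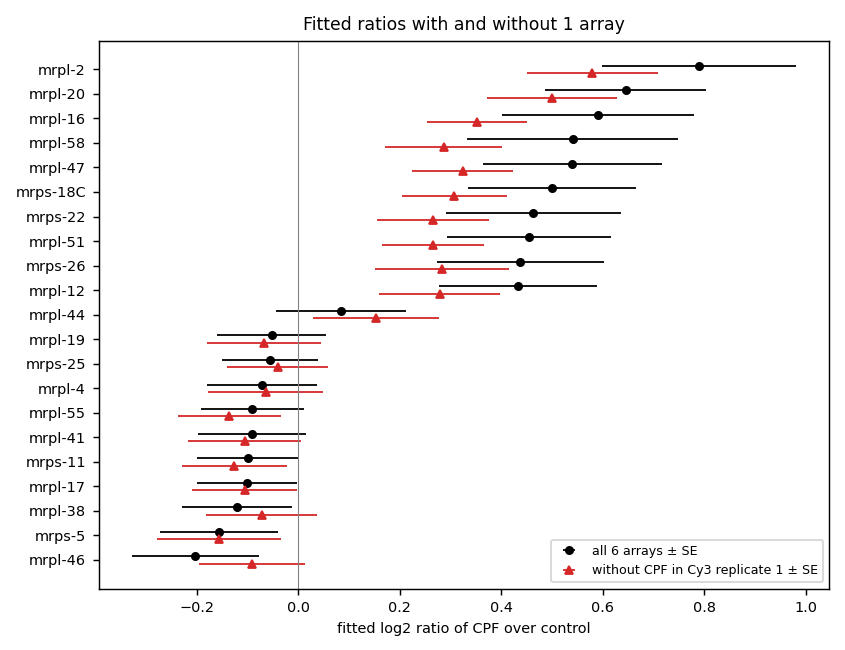
Fitted log2 ratio of CPF over control, by the scanner labels, with its SE for the 10 highest and 10 lowest mitochondrial ribosomal protein genes and mrpl-44, from all 6 arrays (black) and without CPF in Cy3 replicate 1 (red). The top genes lie closer to 0 without that array, as mrpl-16 at 0.35 in place of 0.59.

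Both dye orientations were compared. The median over the 59 genes was 0.12 on the CPF in Cy5 arrays and 0.20 on the CPF in Cy3 arrays. The mean ratio was above 0 in both orientations for 34 genes, below 0 in both for 6 and of opposite sign for 19. In the fit 0 of 62 member probes had a dye term past the adjusted p of 0.05, against 0.00906% of all tested probes (1 of 11033). At an unadjusted p of 0.05, 2 of 62 (3.23%) had a dye term, against 9.89% of all tested probes. The 2 were mrpl-37, at -0.10 with CPF in Cy5 and 0.57 with CPF in Cy3 (limma adjusted p = 0.490), and mrps-16, at -0.09 and 0.58 (limma adjusted p = 0.491). Across the 59 genes, which share arrays and are not independent replicates, the ratios correlated at 0.77 between CPF in Cy5 replicates 1 and 2 and at 0.70 between CPF in Cy3 replicates 1 and 2, where all tested genes gave 0.69 and 0.58. The correlation was -0.33 between CPF in Cy5 replicate 1 and CPF in Cy3 replicate 3, where it was 0.05 over all tested genes. The order of the members was therefore not the same on all arrays.

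The subunits and protein classes gave like values. The median ratio was 0.16 for the 34 large subunit genes, of which 26 were above 0, and 0.16 for the 25 small subunit genes, of which 21 were above 0. Genes numbered as in bacteria (mrpl- up to 36 and mrps- up to 21) had a median of 0.16, with 31 of 36 above 0. Those with higher numbers, most of them without bacterial counterpart, had a median of 0.18, with 16 of 23 above 0. By chromosome, 16 of 17 tested members on III and 9 of 10 on II were above 0, and 11 of 15 on I, 6 of 9 on IV and 5 of 8 on V. These counts are descriptions, and the differences between classes were not tested.

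Other genes of mitochondrial gene expression were mostly not called either. Over all 9947 tested genes 96 were called higher, 233 were called lower and 50.9% were above 0. Of 5 tested mitochondrial translation factors 0 were called, 4 were above 0 and the median was 0.17. The elongation factor genes tufm-2 and tufm-1 had the smallest p, with ratios of 0.22 ± 0.10 and 0.20 ± 0.12. Of 13 mitochondrial aminoacyl-tRNA synthetases, which charge transfer RNA, 0 were called and 7 were above 0, with a median of 0.03. There vars-1 had 0.32 ± 0.12 and cars-2 -0.31 ± 0.14. Of 3 tested genes for the upkeep and transcription of mitochondrial DNA 0 were called and 2 were above 0, with a median of 0.31. mtss-1, a single-stranded DNA binding protein, had 0.40 ± 0.14, hmg-5, a DNA packaging protein, 0.31 ± 0.21, and rpom-1, the RNA polymerase of the organelle, -0.17 ± 0.12. Without CPF in Cy3 replicate 1, mtss-1 had 0.25, hmg-5 0.10 and rpom-1 -0.13. The mitochondrially encoded genes, whose messages this ribosome translates, were not found by symbol in the annotation. Whether the array held probes for them was not tested.

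The respiratory chain and ATP synthase, with assembly factors of cytochrome c oxidase, had 68 tested nuclear genes, of which 1 rose, 0 fell and 47 were above 0 (median 0.07). The gene that rose was cyc-2.2, a cytochrome c, with ratios of 0.77, 0.70, 1.14, 0.69, 0.24 and 0.50 (fitted 0.67 ± 0.11, limma adjusted p = 0.0249). Its call was kept without CPF in Cy3 replicate 1 or CPF in Cy3 replicate 3 (adjusted p of 0.0124 and 0.0198). It was lost without any one of CPF in Cy5 replicates 1 to 3 (0.133, 0.0824 and 0.0801) or CPF in Cy3 replicate 2 (0.0671). Among 12 genes of mitochondrial import 0 were called and 9 were above 0 (median 0.21, and 0.13 without CPF in Cy3 replicate 1). The channel proteins timm-17B.2 and timm-17B.1 had 0.60 ± 0.17 and 0.70 ± 0.23 there (adjusted p = 0.0873 and 0.113).

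Of 13 mitochondrial chaperones, proteases and stress regulators 1 rose, 0 fell and 8 were above 0 (median 0.05). Their fitted ratios ranged between -0.35 and 0.54. The chaperonin gene hsp-60, a common marker of the mitochondrial unfolded protein response, had ratios of 0.16, 0.00, 0.43, 1.18, 0.55 and 0.93 (fitted 0.54 ± 0.12, limma adjusted p = 0.0498). Its call was kept without CPF in Cy3 replicate 1 or CPF in Cy3 replicate 3 (adjusted p of 0.0361 and 0.0463). It was lost without any one of CPF in Cy5 replicates 1 to 3 (0.199, 0.141 and 0.129) or CPF in Cy3 replicate 2 (0.0897). Induction of the mitochondrial unfolded protein response was not tested.

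The ribosomal proteins of the cytosol were placed on the other side of 0. Of 77 tested cytosolic genes 0 were called and 10 were above 0, with a median of -0.12, against a median of 0.16 with 47 of 59 above 0 for the mitochondrial set. Without CPF in Cy3 replicate 1 the medians were 0.09 for the mitochondrial and -0.06 for the cytosolic genes. rpl-6 had -0.39 ± 0.11 (limma adjusted p = 0.0880) and rpl-22 0.69 ± 0.21 (0.0981). Array by array, the mitochondrial median minus the cytosolic median was 0.33, 0.46 and -0.06 on the CPF in Cy5 arrays and 0.78, 0.01 and 0.13 on the CPF in Cy3 arrays. The mitochondrial set was thus the higher on 5 of 6 arrays, on one of them by only 0.01. The difference between the sets was not tested.

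**Figure D5:**
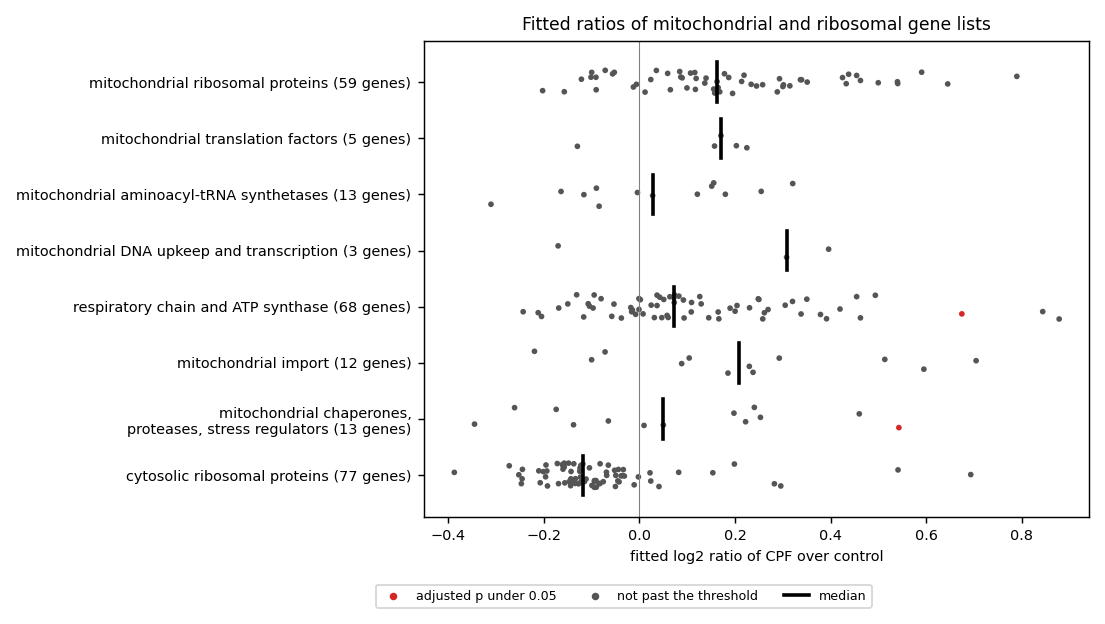
Fitted log2 ratio of CPF over control, by the scanner labels, for each tested gene (points, red where the adjusted p was under 0.05) of the mitochondrial ribosomal proteins and of related gene lists, with the median of each list as a bar. The mitochondrial ribosomal proteins have a median of 0.16 and the cytosolic ribosomal proteins one of -0.12.

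Ratios of germline markers were also mostly above 0, and those of several somatic tissues mostly below. For comparison, 50.9% of all 9947 tested genes were above 0, and 96 were called higher and 233 lower. Of 6 germline genes 5 were above 0 (1 called higher, median 0.26), and their summed intensity was 24629 to 40186 in CPF channels and 6517 to 33754 in control channels. Of 7 oocyte and eggshell genes 7 were above 0 (1 called higher, median 0.36), with sums of 2530 to 9219 in CPF channels and 2155 to 7393 in control channels. Both sums were the higher in CPF within each of the 6 arrays. Of 14 sperm genes 13 were above 0 (2 called higher, median 0.46), with sums of 210656 to 535279 in CPF channels and 67258 to 387217 in control channels. The sperm sum was the higher in CPF on only 4 of 6 arrays.

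The sperm genes differed from the members in where they were high, with array medians of 0.67, 0.63 and 1.67 on the CPF in Cy5 arrays and -0.10, 0.03 and -0.14 on the CPF in Cy3 arrays. The median was -0.17 over 5 muscle genes (2 above 0) and -0.28 over 6 intestine genes (1 above 0). Over 7 neuron genes it was -0.29 (2 above 0). It was 0.12 over 4 pharynx genes (3 above 0) and 0.30 over 5 hypodermis genes (4 above 0). In each of these lists 0 genes were called. The neuron and hypodermis medians were -0.17 and 0.13 when CPF in Cy3 replicate 1 was left out. The markers msp-36, msp-10, spe-9, ssp-9, chs-1, mlc-1 and marg-1 were not well enough above background to be tested. The part of these tissues in the ratios of the mitochondrial ribosomal proteins was not tested.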

How the data were processed

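Per the file headers, the authors quantified scanned two-colour arrays. The deposited files give the intensity of a spot as mean and median brightness, that of its surroundings, and the percent of saturated pixels, all without correction or normalisation. Per the labels, the authors used limma 3.2.3 for their table of log2 ratios. Its columns correlated across bright probes at 0.893 to 0.996 or at -1.00 to -0.971 with the array of opposite orientation, so it was used as an alternative only, matched in this way.

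Of 22490 gene probes 21382 were named by sequence name and 31 by gene number in RefSeq's annotation of WBcel235, and 1077 kept the name in the file. The 742 control and empty spots were left out. Mean intensity was corrected by normexp (offset 50), then normalised after the study's methods, with loess for each array and Aquantile over the arrays. Log2 ratios were fitted with terms for CPF and dye in limma 3.58.1 under R 4.3.3 (lmFit, then eBayes, 2-sided). P-values were adjusted by Benjamini-Hochberg over all tested probes (threshold 0.05). The brightest tested probe stood for a gene. The procedure was tested on simulated data. Figures used matplotlib 3.10.9 in Python 3.11.15.

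Members named by rule had the 10 highest and 10 lowest fitted ratios or the 3 smallest p in each direction. The rule also named mrps-5 and genes with probes of opposite sign. Of the related gene lists it named the called genes or else the 2 with the smallest p. In the tissue marker lists, called genes were counted but not named. rpom-1, mrps-2, mrps-10, mrps-16, mrpl-37 and the dimmer probes of mrps-18B and mrpl-13 were named after their values were seen. The members, lists and tests were chosen with earlier results of these data known. Alternatives covered background, normalisation, filter, dye term, replicate block, model, source of values, weights and left-out arrays.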

Additional observations from a re-analysis of the deposited data

Results flagged for a closer look

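For 5 of the named genes 1 array lay far from the other 5, and each time it was CPF in Cy3 replicate 1. The log2 ratio of CPF over control on that array was 1.84 for mrpl-16 (next highest 0.44), 1.65 for mrpl-47 (0.39), 1.34 for mrpl-51 (0.45), 1.65 for mrpl-58 (0.62) and 1.57 for mrps-18C (0.51). Over all 59 tested genes 8 (13.6%) had such a gap on that array and 0 on any other, while over all 9947 tested genes 6.87% had it on that array and 0.221% to 0.734% on each of the others. Counted over any array, 13.6% of the 59 genes and 9.29% of all tested genes had such a gap. Chance flags about 1 in 20 genes counted in this way. The SD of all ratios was widest on that array (0.900), and its part in these values was not tested beyond the fit without it.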

How the results depend on the processing

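The median ratio of the member genes was 0.16 and stayed above 0 in each of the alternatives run, between 0.08 (deposited table) and 0.26 (median centring, which placed the median of all tested genes at 0.10), and between 0.09 and 0.21 with 1 array left out. In the deposited table the column matched to CPF in Cy3 replicate 1 held 13608 values, against 20033 to 20706 in each of the others. The part of these missing values in the lower median was not tested. Counts of calls were less stable. Of 62 member probes 0 were called, against 7 after scale normalisation (11.3%, where 11.6% of all tested probes were called), 6 with robust regression (9.68%, all 14.7%), 3 of 54 in the deposited table (5.56%, all 7.46% of 9272), 1 with median spot brightness (1.61%, all 3.51%), 1 with only the CPF in Cy5 arrays (1.61%, all 5.7%) and 0 to 5 with 1 array left out. With array weights 23 were called (37.1%), 19 higher and 4 lower (mrps-5, mrpl-17, mrpl-41 and the dimmer probe of mrpl-44), against 45.4% of all tested probes, and 1 array, CPF in Cy3 replicate 2, had a weight of 27.4. Apart from these 4, each member called in an alternative was higher in CPF. Over all tested probes 386 were called, against 243 without background correction, 233 with plain subtraction, 54 with median centring, 1281 with scale normalisation, 256 among probes above background in all channels, 205 without the dye term, 8 under the study's linear model (read as a fit of single channels), 692 in the deposited table, 387 with median spot brightness, 5005 with array weights, 1626 with robust regression, 629 with only the CPF in Cy5 arrays, 20 with only the CPF in Cy3 arrays and 58 to 1323 with 1 array left out. The causes were not tested. Of 497 values of named members under the alternatives 466 kept their side of the threshold and 31 passed it. Among the same 497 values, 13 had another sign without a call in either fit.

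Deviations of same-numbered arrays of both orientations correlated at 0.103, -0.0788 and 0.271 across probes. Arrays of different number were not compared in this way, so these values cannot decide whether the arrays were paired. With the replicate number as a block 1 member probe was called (the dimmer probe of mrps-18B, adjusted p = 0.0433) and 470 of all, and with paired arrays averaged 0 and 165.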
